A study of Homo sapiens with 12 samples.

Results

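PANC-1 cells given extra miR-10b were compared with PANC-1 cells given an inhibitor of miR-10b, taking the arrays whose titles name premir miR-10b and antimir-10b, which make up 6 of the 12 arrays of the series. PANC-1 is an established human line from a pancreatic ductal adenocarcinoma, and all cultures were grown in DMEM with serum and antibiotics and collected 20 h after transfection of 1 small RNA oligo. A premir is a synthetic precursor that the cell processes to the active microRNA, and an antimir is an oligo that binds the microRNA and blocks it. The 4 groups received premir miR-10b, its premir control, antimir-10b or its antimir control, with 3 biological replicates each, and total RNA was read on Illumina BeadChips with 47231 probes. The compared groups differ in the class of oligo as well as in miR-10b, and within the comparison these cannot be told apart. The control oligos also differ in class, without miR-10b, and their difference is given beside the main results. That difference holds any effect of either control oligo itself as well, so it is not a measure of class alone. The level of miR-10b itself was not analysed here.

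MicroRNAs are short RNAs that guide Argonaute proteins to messenger RNAs, mainly through the seed at bases 2 to 8, and lower the stability or translation of those messages. The miR-10 family lies within the HOX gene clusters, and miR-10b is known for its high level in invasive carcinomas, pancreatic ductal adenocarcinoma among them. Its described targets include HTATIP2 (TIP30), a metastasis suppressor, SDC1, the cell-surface proteoglycan syndecan-1, BTRC, a substrate receptor of a ubiquitin ligase, and the homeobox gene HOXD10. An inhibitor acts the opposite way, by releasing targets from the microRNA.

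The mature arm that carries the activity, hsa-miR-10b-5p, is named only. RefSeq (GRCh38.p14) gives the other arm of its precursor, at chr2:176150368-176150389 on the plus strand, and the 5p arm of the family member miR-10a, at chr17:48579904-48579926 on the minus strand. They are shown because a seed is the part of such an oligo that selects its targets, and the capitals mark bases 2 to 8.
hsa-miR-10a-5p: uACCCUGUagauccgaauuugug
hsa-miR-10b-3p: aCAGAUUCgauucuaggggaau
The seeds of the 5p and the 3p arm printed here differ, so these arms belong to different seed families.

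One array stood apart before any comparison. On premir miR-10b replicate 2 29.5% of probes were detected, against 39.2% to 41.3% on the other 11 arrays, and its correlation with them was 0.814 to 0.826, where those 11 correlated at 0.981 to 0.996 with each other. VIM, the gene of the intermediate filament vimentin, read 10.93 on it as a normalized log2 signal and 14.12 and 13.95 on premir miR-10b replicates 1 and 3. The results therefore come from premir miR-10b replicates 1 and 3 against antimir-10b replicates 1, 2 and 3, the spread being estimated over 11 arrays, and replicate 2 is given beside them. Replicate 1 and replicate 3 correlated at 0.984, below the 0.988 to 0.995 among the antimir-10b arrays. Replicate 1 lay nearest to a premir control array (0.994) and replicate 3 nearest to an antimir control array (0.992). Of the duct and PANC-1 marker list 8 of 9 genes were detected on each of the 5 arrays (CFTR was not), with a summed linear signal of 10107 to 10772 with premir miR-10b and 10384 to 10863 with antimir-10b. Of the leukocyte list 3 to 4 of 11 genes were detected, with sums of 3616 to 3892 and 3795 to 4010, while PTPRC, CD3D and CD3E were detected on fewer than 3 of the 11 arrays. Of the endothelial list 2 to 3 of 10 were detected, with sums of 587 to 638 and 560 to 642, while PECAM1, VWF and CDH5 were detected on fewer than 3. Of the acinar, islet and fibroblast lists 1 to 3 of 11, 0 to 1 of 8 and 1 to 3 of 12 genes were detected, with sums of 499 to 529 and 498 to 561, 297 to 322 and 299 to 302, and 1094 to 1221 and 908 to 1139. Their part in the results was not tested.

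With extra miR-10b 69 features were lower than with the inhibitor and 5 were higher. By limma, at a Benjamini-Hochberg adjusted p under 0.05 over 17369 features, this is 0.426% of all features, 0.397% lower and 0.0288% higher. A feature is a gene, or a probe that has no gene symbol, and 56 of the falls and all 5 rises have a symbol. At an unadjusted p under 0.05 limma gave 1381 features, 600 higher and 781 lower, where 868 would be expected by chance. The falls ran from -2.17 to -0.61 on the log2 scale with a median of -0.997, and 34 of them exceeded 1 log2 unit. The rises ran from 0.70 to 0.84. With all 12 arrays in the fit, limma called 11 features, all of them lower and all among the 69, which is 0.0633% of features (1389 at an unadjusted p under 0.05). The genes among them were SUMF1, HTATIP2, GOLGA3, CMPK1, RAB15, RPL13A, ST6GALNAC6, NIPAL4, CNNM4 and BTRC, so that EXOC2, SDC1 and CRLF3, for instance, were not called with replicate 2 included. With only the 5 compared arrays in the fit limma called 13, with CMPK1, SUMF1 and RAB15 in both sets. RAB15 and CNNM4 were each detected on 1 of premir miR-10b replicates 1 and 3, and neither was detected on replicate 2. Omitting antimir-10b replicate 1 left 48 calls. In bulk RNA a lower level in every cell and a smaller share of cells with the transcript cannot be told apart.

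The largest falls were those of CMPK1, CRLF3, ISCA2, EXOC2, SDC1 and SUMF1. CMPK1, the kinase that phosphorylates UMP and CMP, read 7.78 and 6.96 on premir miR-10b replicates 1 and 3 and 9.59, 9.30 and 9.72 with antimir-10b, all on the normalized log2 scale. It read 7.16 on replicate 2, so all 3 premir miR-10b arrays lay below the other 9 arrays, whose lowest value was 8.49. Replicates 1 and 3 lay below those 9 arrays in 3.26% of all features. CMPK1 fell 4.49-fold, a log2 difference of -2.17 ± 0.27 (SE) with a limma adjusted p of 0.00162, and its other probe gave -2.08. The control oligos differed by 0.19, and CMPK1 was called under all 25 alternative settings.

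EXOC2, a subunit of the exocyst that tethers secretory vesicles to the plasma membrane, had the smallest p of all features. Its signal was 6.72 and 6.95 with premir miR-10b, 5.36 on replicate 2, and 8.51, 8.42 and 8.74 with antimir-10b, while the 6 control arrays lay between 8.31 and 8.53. On replicate 2 EXOC2 was not detected. EXOC2 fell 3.31-fold, a log2 difference of -1.73 ± 0.14 (SE), with a limma adjusted p of 0.000114, -1.24 at its other probe and -0.04 between the control oligos. EXOC6, another exocyst subunit, fell 1.87-fold (limma adjusted p 0.010), with -0.04 between the control oligos, but on replicate 2 it read 8.06, above the antimir-10b arrays at 7.74 to 7.98. The golgin GOLGA3, a scaffold protein of the Golgi membrane, read 9.71, 9.25 and 9.37 on premir miR-10b replicates 1, 2 and 3 and 10.83, 10.75 and 10.76 with antimir-10b. It fell 2.36-fold with a limma adjusted p of 0.00162 and -0.15 between the control oligos. The ranges of the 3 premir miR-10b and the 3 antimir-10b arrays did not overlap. Over all features replicates 1 and 3 lay below the antimir-10b arrays in 11.5%, and replicate 2 in 39.9%.

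On the proteoglycan list 3 of 30 measured genes fell, where 0.397% of all features did. The list was chosen with earlier results of these arrays known, so the count describes its members only. SDC1 read 9.13 and 9.53 with premir miR-10b, 10.18 on replicate 2 and 11.05, 11.13 and 10.95 with antimir-10b. It fell 3.27-fold (-1.71 ± 0.15 SE, limma adjusted p 0.000194), while its other probe gave 0.23, so the probes disagree. Part of the gap also lay between the control oligos: SDC1 was at 10.41 to 10.71 with premir control and 10.97 to 11.28 with antimir control, a difference of -0.52, the widest in the direction of the fall among the 69. SUMF1, which activates sulfatases including those that act on glycosaminoglycans, read 5.87, 6.31 and 5.65 against 7.41, 7.16 and 7.65 and fell 3.13-fold (limma adjusted p 0.000195), with 0.08 between the control oligos. CHST14, a dermatan sulfotransferase, read 7.59 and 7.49 against 8.10, 8.16 and 8.33 and fell 1.58-fold (limma adjusted p 0.0374), with -0.08 between the control oligos. On replicate 2 CHST14 read 8.77, above all antimir-10b arrays, and with that array included it was not called (-0.25, limma adjusted p 0.599). It was called under 6 of 25 alternative settings.

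CRLF3, a cytokine receptor-like factor, and RAP2A, a small GTPase of the RAS family, are both on lists of miR-10b targets and were the falls with the widest gap between premir miR-10b replicates 1 and 3 among the genes described here. CRLF3 read 7.18 on replicate 1, 5.87 on replicate 3 and 5.50 on replicate 2, against 8.70, 8.25 and 8.62, and fell 3.99-fold (limma adjusted p 0.00307, other probe -1.28). RAP2A read 7.38 on replicate 1, 6.38 on replicate 3 and 5.17 on replicate 2, against 8.65, 8.37 and 8.17, and fell 2.86-fold (limma adjusted p 0.00552). Neither CRLF3 nor RAP2A was detected on replicate 2. In both genes premir control stood above antimir control, by 0.42 and 0.45, so the control oligos differed in the direction opposite to the fall.

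ISCA2, which helps build mitochondrial iron-sulfur clusters, and MCMBP, a partner of the MCM replicative helicase, turned over on replicate 2. ISCA2 read 5.71 and 5.31 on replicates 1 and 3 but 7.89 on replicate 2, against 7.32, 7.23 and 7.29 with antimir-10b, and was detected on 1 of the 2 arrays used. MCMBP read 5.85 and 5.55 but 8.02 on replicate 2, against 7.18 on antimir-10b replicates 1 and 3 and a slightly lower value on replicate 2. Without replicate 2 they fell 3.41-fold and 2.67-fold (limma adjusted p 0.000194 and 0.000225), and with it neither was called. The control oligos differed by 0.25 in ISCA2 and by -0.18 in MCMBP. LRRC8B, a subunit of the volume-regulated anion channel, fell 2.97-fold (limma adjusted p 0.000382) at a probe that read 8.27 and 7.73, and 8.98 on replicate 2, against 9.63, 9.37 and 9.71, while its other probe gave -0.14 and the control oligos differed by 0.22. KCTD18, a protein with a BTB domain, read 6.26 and 5.57, and 4.89 on replicate 2, where it was not detected, against 7.23, 7.14 and 7.45. It fell 2.57-fold (limma adjusted p 0.00301), with 0.23 between the control oligos.

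EDEM1, which directs misfolded glycoproteins to degradation from the endoplasmic reticulum, read 7.77 and 7.86, and 4.90 on replicate 2, where it was not detected, against 9.16, 9.11 and 9.25. It fell 2.57-fold (limma adjusted p 0.000225), with -0.23 between the control oligos. The histone gene H3-5 read 10.18 and 10.16, and 8.90 on replicate 2, against 11.59, 11.63 and 11.42 and fell 2.60-fold (limma adjusted p 0.000225), with -0.02 between the control oligos. It is nearly identical to H3-3B, which had -1.11, and their signals may not be separable. On replicate 2 H3-3B read 9.33, above the antimir-10b arrays. RPL13A, a protein of the large ribosomal subunit with pseudogene copies, fell 1.99-fold, from 10.92, 11.02 and 10.93 to 9.88 and 10.05, and read 9.65 on replicate 2 (limma adjusted p 0.00239), with -0.10 between the control oligos.

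**Figure D1:**
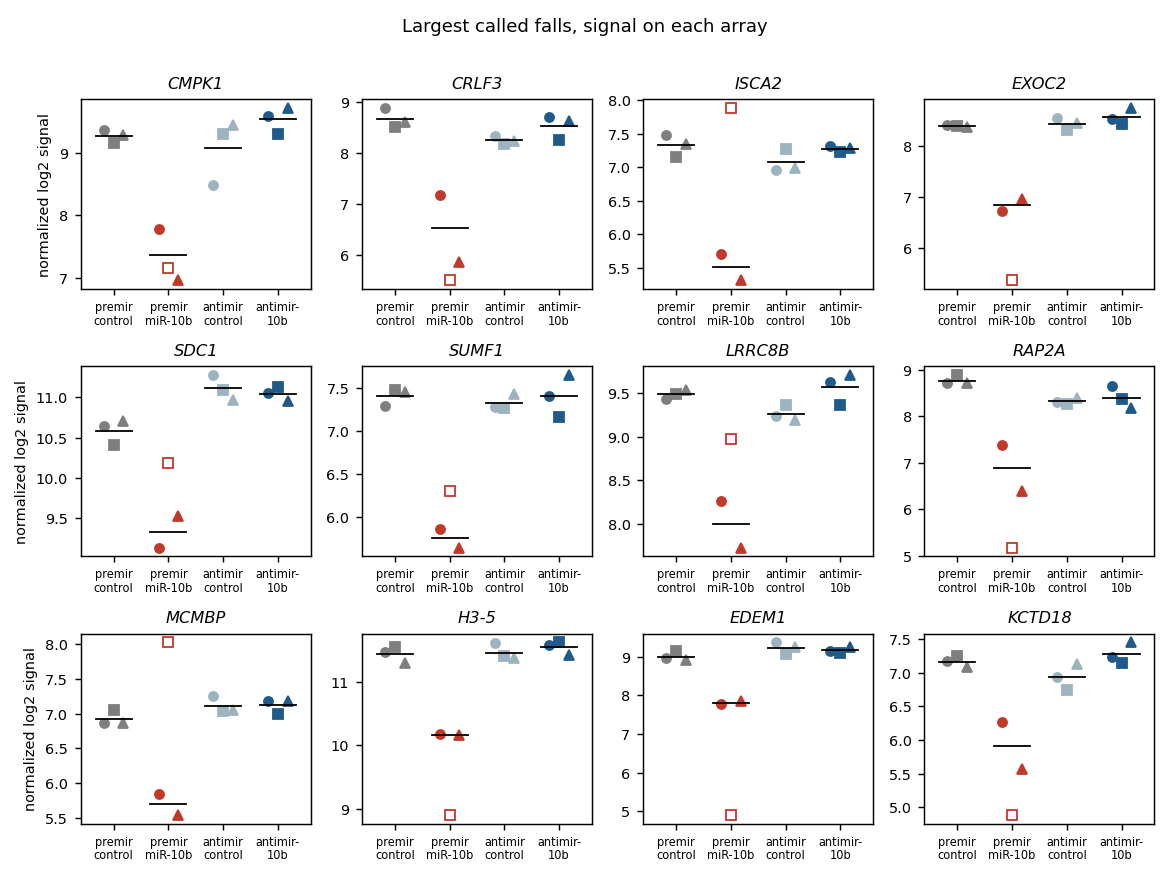
Normalized log2 signal of the 12 named genes with the largest falls, for each of the 12 arrays by group. Circles, squares and triangles are replicates 1, 2 and 3, the hollow square is premir miR-10b replicate 2, and black lines are group means (replicates 1 and 3 for premir miR-10b). In each gene replicates 1 and 3 of premir miR-10b lie below all 9 other arrays, while the hollow square lies above the antimir-10b arrays in ISCA2 and MCMBP.

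HTATIP2 fell 1.96-fold. It read 9.88 and 9.98 on premir miR-10b replicates 1 and 3 and 9.60 on replicate 2, against 10.93, 10.93 and 10.86 with antimir-10b. The 6 control arrays lay at 10.91 to 11.06, so all 3 premir miR-10b arrays were below all 9 others and the antimir-10b arrays lay close to the controls. Of all features 3.26% had replicates 1 and 3 below those 9 arrays. The log2 difference was -0.97 ± 0.11 (SE), with a 95% interval from -1.22 to -0.73 and a limma adjusted p of 0.000966. Between the control oligos the difference was -0.02, and between antimir-10b and antimir control it was -0.10. BTRC was not detected on premir miR-10b replicates 1 and 3, where it read 5.18 and 5.04, or on replicate 2, at 4.81, against 6.16, 6.12 and 6.74 with antimir-10b, and was at least 2.01-fold lower (limma adjusted p 0.00517), with 0.22 between the control oligos.

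Among the smaller falls, SMURF1, a ubiquitin ligase that acts on SMADs and their receptors, read 6.50 and 6.69, and 5.57 on replicate 2, against 7.53, 7.52 and 7.67 and fell 1.97-fold (limma adjusted p 0.00239), with -0.40 between the control oligos. SMURF1 was not detected on replicate 2. SKA1, a component of the kinetochore complex that holds microtubules, read 7.30 and 6.92, and 6.86 on replicate 2, against 8.17, 8.17 and 8.03 and fell 2.01-fold (limma adjusted p 0.00897), with 0.26 between the control oligos. GCLM, the modifier subunit of glutamate-cysteine ligase, read 9.58 and 9.55, and 8.44 on replicate 2, against 10.45, 10.43 and 10.55. It fell 1.88-fold (limma adjusted p 0.00593, other probe -1.04), with -0.11 between the control oligos.

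The other named falls were picked out after their values had been seen. They include P4HB, a protein disulfide isomerase of the endoplasmic reticulum (-1.31), SCARB2, a lysosomal membrane protein (-1.28), and ST6GALNAC6, a sialyltransferase (-1.25). They also include SLC7A1, a transporter of cationic amino acids (-1.15), TMEM30A, a subunit of lipid flippases (-0.97), the small GTPase RAB15 (-1.31), DHDDS, which makes the dolichol backbone for glycosylation (-0.72), and USE1, a SNARE protein (-0.64). RAB15 was detected on 1 of premir miR-10b replicates 1 and 3 and not on replicate 2, so its difference is partly against undetected signal. LRRC8A, the obligatory subunit of the same anion channel as LRRC8B, had -0.75. Others were CRADD, an adaptor of death signalling (-1.07), the mitotic kinase gene NEK6 (-0.90), the microtubule-binding protein gene CLASP2 (-0.84), KHNYN, which works with the antiviral factor ZAP (-0.94), and ZMYND11, a reader of modified histone H3.3 (-1.16, other probe -0.12). TMEM183A and TMEM183BP, a near-identical pair, had -0.97 and -1.06 and cannot be told apart. Between the control oligos DHDDS had -0.32, USE1 -0.27 and LRRC8A -0.30, in the direction of their falls. The other falls of this paragraph had -0.09 (RAB15) to 0.31 (KHNYN) there. DHDDS, USE1 and LRRC8A were called under 3, 8 and 14 of 25 alternative settings. P4HB read 11.06 and 11.12 on premir miR-10b replicates 1 and 3 and 11.84 on replicate 2, against 12.47, 12.31 and 12.41. All 3 premir miR-10b arrays thus lay below all 3 antimir-10b arrays. Over all features replicates 1 and 3 did so in 11.5% and replicate 2 in 39.9%. Replicate 2 went the other way in SLC7A1 (9.85), TMEM30A (8.36) and NEK6 (9.20), above all 3 antimir-10b arrays. With replicate 2 in the fit TMEM30A had -0.32 (limma adjusted p 0.648). LRRC8A lay within the antimir-10b range on replicate 2, and the other falls of this paragraph lay below it.

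All 69 falls had premir miR-10b replicates 1 and 3 below the 3 antimir-10b arrays, as had 11.5% of all features, and all 69 also lay below the 9 other arrays, as had 3.26% of all features. The test that called the falls used these arrays, so the counts describe the calls. The arrays themselves gave similar sizes: over the 69 falls the median difference from the antimir-10b mean was -0.98 on replicate 1 and -1.05 on replicate 3, with 44 features lower on replicate 3 and 25 lower on replicate 1. The gap between replicates 1 and 3 had a median of 0.21, against a median range of 0.20 over the 3 antimir-10b arrays, and a largest value of 1.31. Replicate 2, which entered the normalization but not the fit, had a median of -0.91 over the 69, with single features from -4.28 to 1.49. It lay below all 3 antimir-10b arrays in 49 of the 69, where 39.9% of all features did, and above all 3 in 18, where 50% of all features did. Some of the 49, EXOC2 and EDEM1 among them, were not detected on replicate 2.

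Over all features the differences of the same-numbered arrays did not move alike. The difference between replicates 1 of the miR-10b oligos and the difference between replicates 3, which share no array, correlated at -0.09 (Pearson) and -0.17 (Spearman) across the 17369 features. Each difference also holds the spread of its antimir-10b array, so the values do not describe the premir miR-10b arrays alone. These arrays share the normalization, and features are not independent.

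The 5 rises were at most 0.84 log2 units, and none of these genes was called between the control oligos, where 1765 features had an unadjusted limma p under 0.05. PLEKHB2, a pleckstrin-homology protein of recycling endosomes, read 8.65 and 8.88 with premir miR-10b, 7.83 on replicate 2 and 7.92, 7.98 and 7.88 with antimir-10b. The premir control arrays read 8.61, 8.59 and 8.74 and the antimir control arrays 8.19, 8.11 and 7.75, so both premir groups stood above both antimir groups. It rose 1.79-fold, a log2 difference of 0.84 (limma adjusted p 0.0176), while its other probe gave 0.44. The control oligos differed by 0.63 (limma adjusted p 0.0825).

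STK40, a serine/threonine kinase-like protein, and AMMECR1, a gene deleted in a syndrome with Alport features, had the same order of groups. STK40 read 10.10, 10.41 and 10.41 on premir miR-10b replicates 1, 2 and 3, 10.08 to 10.36 with premir control, 9.43 to 9.56 with antimir-10b and 9.48 to 9.66 with antimir control. AMMECR1 read 9.01, 9.45 and 8.85 with premir miR-10b, 8.72 to 9.02 with premir control, 8.12 to 8.33 with antimir-10b and 8.18 to 8.38 with antimir control. They rose 1.68-fold and 1.65-fold (limma adjusted p 0.0315 and 0.0316), with 0.62 and 0.56 between the control oligos (limma adjusted p 0.0727 and 0.1). As log2 differences these were 0.75 and 0.72, while the other probes gave less, 0.24 for STK40 and 0.39 for AMMECR1. In these genes all 3 premir miR-10b arrays, replicate 2 included, lay above all antimir-10b arrays. Over all features replicates 1 and 3 did so in 8.57%, and replicate 2 in 50%.

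FAM217B and DICER1 were the rises in which premir miR-10b replicates 1 and 3 also stood above all 9 other arrays, which 2.02% of all features did. FAM217B, a gene without a settled function, read 9.73 and 10.10 against 9.07, 9.27 and 8.99 with antimir-10b and 9.12 to 9.39 on the control arrays, and rose 1.75-fold (limma adjusted p 0.0268), with -0.05 between the control oligos. DICER1, the nuclease that cuts microRNA precursors to their mature length, read 9.41 and 9.71 against 8.85, 8.82 and 8.90, with premir control at 9.07 to 9.21, and rose 1.63-fold (limma adjusted p 0.0379, other probe 0.44), with 0.24 between the control oligos. On replicate 2 they read 8.16 and 7.79, below the antimir-10b arrays, and DICER1 was called under 8 of 25 alternative settings.

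HOXB3, a homeobox gene of the cluster that holds miR-10a, was the named fall in which the antimir-10b arrays also stood apart from the controls. It read 7.07 and 6.81 on premir miR-10b replicates 1 and 3, 4.93 on replicate 2, where it was not detected, and 7.92, 7.79 and 7.67 with antimir-10b. The control arrays lay between, at 7.24 to 7.46 with premir control and 7.07 to 7.52 with antimir control, so the 3 antimir-10b arrays were above all 8 other arrays used, as were those of 0.507% of all features. HOXB3 was 1.81-fold lower with premir miR-10b than with antimir-10b (limma adjusted p 0.029), made of -0.38 against premir control and 0.45 between antimir-10b and antimir control, neither of which was called. Its other probe gave 0.00, and it was called under 13 of 25 alternative settings. Besides HOXB3, 2 of the 69 falls, both without a symbol, had antimir-10b above all 8 others.

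**Figure D2:**
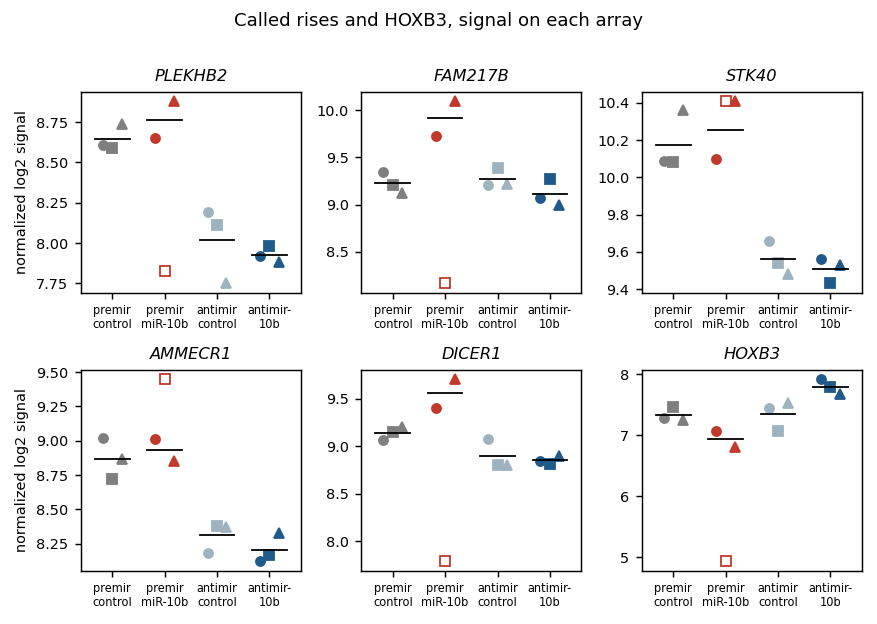
Normalized log2 signal of the 5 genes that were higher with premir miR-10b than with antimir-10b, and of HOXB3, for each array by group, with symbols as in the plot of the falls. In PLEKHB2, STK40 and AMMECR1 premir control lies beside premir miR-10b replicates 1 and 3, in FAM217B and DICER1 those replicates lie above all 9 other arrays, and in HOXB3 the antimir-10b arrays lie above all others.

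Over the 69 falls the median difference between premir miR-10b and premir control was -1.03, with values from -2.15 to -0.29, and that between antimir-10b and antimir control was 0.04. These differences share the premir miR-10b and antimir-10b arrays with the comparison itself. The difference between antimir-10b and its control was positive in 46 of the 69 and over 0.25 in 8, among them CMPK1 (0.46), KCTD18 (0.34), LRRC8B (0.31) and CRLF3 (0.27). Antimir-10b against antimir control had 0 features called by limma (0% of features, 365 at an unadjusted p under 0.05), and premir miR-10b against premir control had 124 (0.714%).

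The control oligos gave 36 called features between premir control and antimir control (0.207%), with 6 higher (0.0345%) and 30 lower (0.173%). Among these were 0 of the 74 calls with the miR-10b oligos. The means compared come from different arrays, but the fits share the estimate of spread, to which the control arrays contribute. Omitting 1 array at a time gave 9 to 91 calls between the control oligos. Over the 69 falls the control difference had a median of 0.00, ran from -0.52 to 0.45 and stayed within 0.25 in 51. Across all features the miR-10b and the control difference correlated at 0.17 by both Pearson and Spearman, and their SDs were 0.217 and 0.216. These correlations are across features measured on arrays normalized together.

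**Figure D3:**
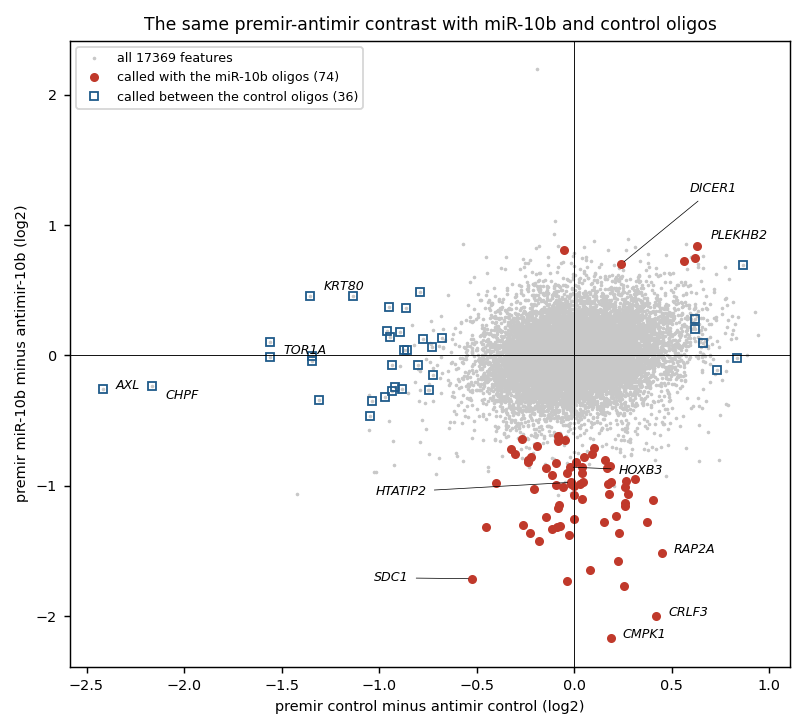
Difference between premir miR-10b and antimir-10b (vertical axis, log2) against the difference between premir control and antimir control (horizontal axis, log2) for 17369 features. Filled circles are the 74 features called with the miR-10b oligos, open squares the 36 called between the control oligos, and no feature is in both sets.

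The difference between these differences removes what the oligo classes have in common, but carries any effect of a single control oligo. It was called for 63 features (0.363%), 18 of them higher (0.104%) and 45 lower (0.259%), with 1115 at an unadjusted p under 0.05. Of the 69 falls 38 were among them and of the 5 rises 0. The miR-10b comparison is itself part of this difference, on the same arrays, so the overlap is not independent of the calls. The count of 63 depends on single arrays: it was 0 with premir miR-10b replicate 2 included. Omitting premir miR-10b replicate 1 raised it to 275, and omitting replicate 3 lowered it to 35. Omission of a premir control array left 30 to 37 calls, of antimir control replicate 2 or 3 left 17 or 35, and of antimir-10b replicate 1 left 33. Its most negative named values were CRLF3 (-2.42), CMPK1 (-2.35), ISCA2 (-2.02), RAP2A (-1.97) and LRRC8B (-1.80), and SDC1 had -1.19 and HTATIP2 -0.96. SMURF1, GCLM and HOXB3 were not among the 63.

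The 18 features called higher in this difference included 0 of the 5 rises. AXL, a receptor tyrosine kinase linked to invasion, read 10.74 and 10.95 with premir miR-10b, 10.97 to 11.17 with antimir-10b and 11.08 to 11.14 with antimir control, but 8.57, 9.16 and 8.35 with premir control. With the miR-10b oligos its difference was -0.26 (limma adjusted p 0.841) and between the control oligos -2.42. Premir control alone was low, and its low value enters the difference between the differences. Replicate 2 of premir miR-10b read 12.76 for AXL, above all other arrays.

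CHPF, an enzyme of chondroitin synthesis, read 6.24 to 6.36 with premir control and 7.69 to 8.68 on the other 9 arrays, with a difference of -0.24 between the miR-10b oligos and -2.16 between the control oligos. TOR1A, an ATPase of the endoplasmic reticulum, read 7.72 to 7.90 with premir control and 8.56 to 9.45 on the others, with -0.01 and -1.56. KRT80, an epithelial keratin, read 8.88 to 9.05 with premir control, 10.74 and 10.70 with premir miR-10b and 10.37, 10.47 and 9.97 with antimir-10b. Its difference was 0.45 with the miR-10b oligos (limma adjusted p 0.418) and -1.35 between the control oligos (limma adjusted p 0.000851). CTDSP2, a small phosphatase acting on RNA polymerase II, had 0.46 and -1.13, and was not called with the miR-10b oligos.

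**Figure D4:**
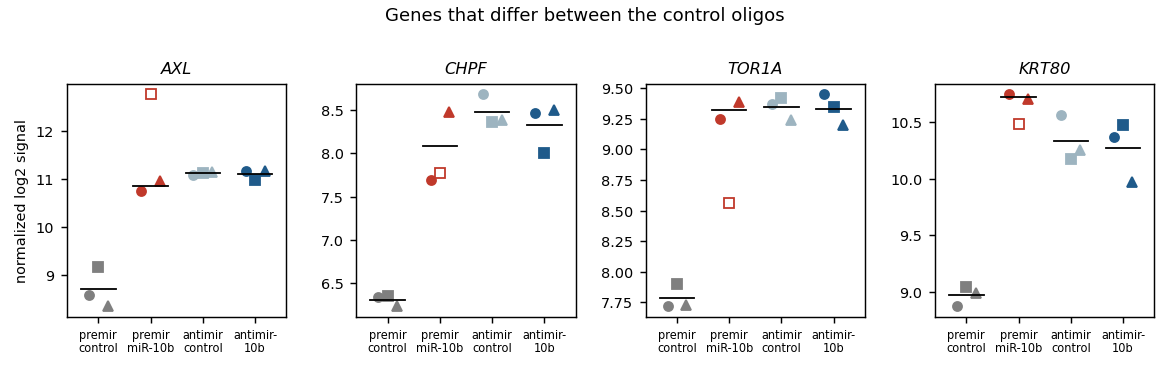
Normalized log2 signal of 4 genes called between the control oligos, for each array by group, with symbols as in the plot of the falls. The premir control arrays lie below all other arrays in each gene, while premir miR-10b replicates 1 and 3 and the antimir-10b arrays lie within 1 log2 unit of each other.

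Among the described targets of miR-10b, 31 of 42 listed genes were measured, of which 8 fell (CRLF3, SDC1, RAP2A, BTRC, ZMYND11, HTATIP2, CNNM4 and HOXB3), 0 rose and 23 were not called, where 0.397% of all features were called lower. Their median was -0.16, with 6 positive values, beside a median of 0.00 over all features and -0.02 for the same genes between the control oligos. The median was -0.26 on replicate 1 and -0.32 on replicate 3. The list was drawn up with earlier results of these arrays known and is not independent evidence of a direction. KLF4, a transcription factor, had -0.16 with an interval from -0.58 to 0.27 (other probe -0.45), NF1, a brake on RAS, -0.09 with an interval from -0.42 to 0.24, and BCL2L11, the BH3 protein BIM, -0.08 with an interval from -0.39 to 0.23. NF1 (5.36 to 5.81) and BCL2L11 (5.23 to 5.75) read close to the detection limit on the 11 arrays, which limits what their intervals show. BCL2L11 was detected on 2 of 3 premir control arrays. HOXD10 was detected on 1 of 12 arrays and ZEB1 on 0, so neither was tested.

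CDK6, a kinase that drives exit from G1, lay close to the threshold. It read 8.57 and 8.69 with premir miR-10b, 9.29, 9.26 and 9.48 with antimir-10b, 9.62 to 9.91 with premir control and 9.09 to 9.52 with antimir control, a difference of -0.71 ± 0.15 (SE) with a limma adjusted p of 0.0612. Premir miR-10b replicates 1 and 3 were below all 9 others, as in 3.26% of all features. The difference between the differences of CDK6, -1.13, was called, with 0.42 between the control oligos. Of the G1 list 0 of 28 measured members were called (median 0.05). E2F7, a transcriptional repressor of the cell cycle, had -0.53 (limma adjusted p 0.319), with 0.64 between the control oligos.

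Mitotic genes had a median of -0.15 over 40 measured members, with 31 negative values and SKA1 as the 1 called, but 0.21 between the control oligos. The median was -0.06 on premir miR-10b replicate 1 and -0.27 on replicate 3. Genes of S phase had 0 of 39 called and a median of -0.04. Interferon-response genes had 0 of 37 called and a median of -0.20, with 0.10 on replicate 1 and -0.42 on replicate 3, and a median of 0.33 between antimir-10b and antimir control. Their direction therefore depended on the premir miR-10b array.

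Genes of NF-kB and the chemokines had the highest median, 0.25 over 17 members, with 13 positive, 0 called and a median of 0.09 on replicate 1 and 0.39 on replicate 3. CXCL1, a neutrophil chemokine, had 0.48 (limma adjusted p 0.338) and -0.79 between the control oligos. The EGF receptor family and ERK output genes had a median of 0.17 over 23 members, 0 called, with 0.23 on replicate 1 and 0.09 on replicate 3. EGR1, an immediate-early gene of ERK signalling, read 6.91 and 6.96 against 6.69, 6.54 and 6.39, a difference of 0.40 that was not called (limma adjusted p 0.323). EGFR itself had 0.17, with -0.10 and -0.04 at its other probes.

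The other lists with called genes are read against 0.397% of all features called lower and 0.0288% called higher. They too were chosen with earlier results of these arrays known. The ER-Golgi and exocyst list had EXOC2, GOLGA3 and EXOC6 lower, 0 higher and a median of -0.04 over 35 members, and the proteoglycan list had SDC1, SUMF1 and CHST14 lower, 0 higher and a median of 0.02 over 30. EDEM1 was the 1 called of 27 unfolded protein response genes (median -0.12), GCLM of 18 NRF2 and glutathione genes (-0.08), SMURF1 of 22 TGF-beta genes (0.05) and RPL13A of 67 ribosomal protein genes (0.00). DICER1 was the 1 called of 21 microRNA processing genes (0.04) and HOXB3 of 19 HOX genes (0.07).

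Of the remaining lists 0 members were called. Their medians were 0.00 for the epithelial state (19 members), 0.06 for the mesenchymal state (16), -0.04 for invasion (17) and 0.12 for p53 targets (20). Apoptosis had -0.02 (21), hypoxia and glycolysis -0.07 (30), lipid synthesis -0.06 (25), heat shock 0.00 (19), the respiratory chain -0.04 (63), autophagy -0.08 (31) and metallothioneins and zinc transport 0.15 (17). VIM, at 14.12 and 13.95 against 14.10, 14.06 and 14.18, had -0.08 with an interval from -0.33 to 0.17.

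**Figure D5:**
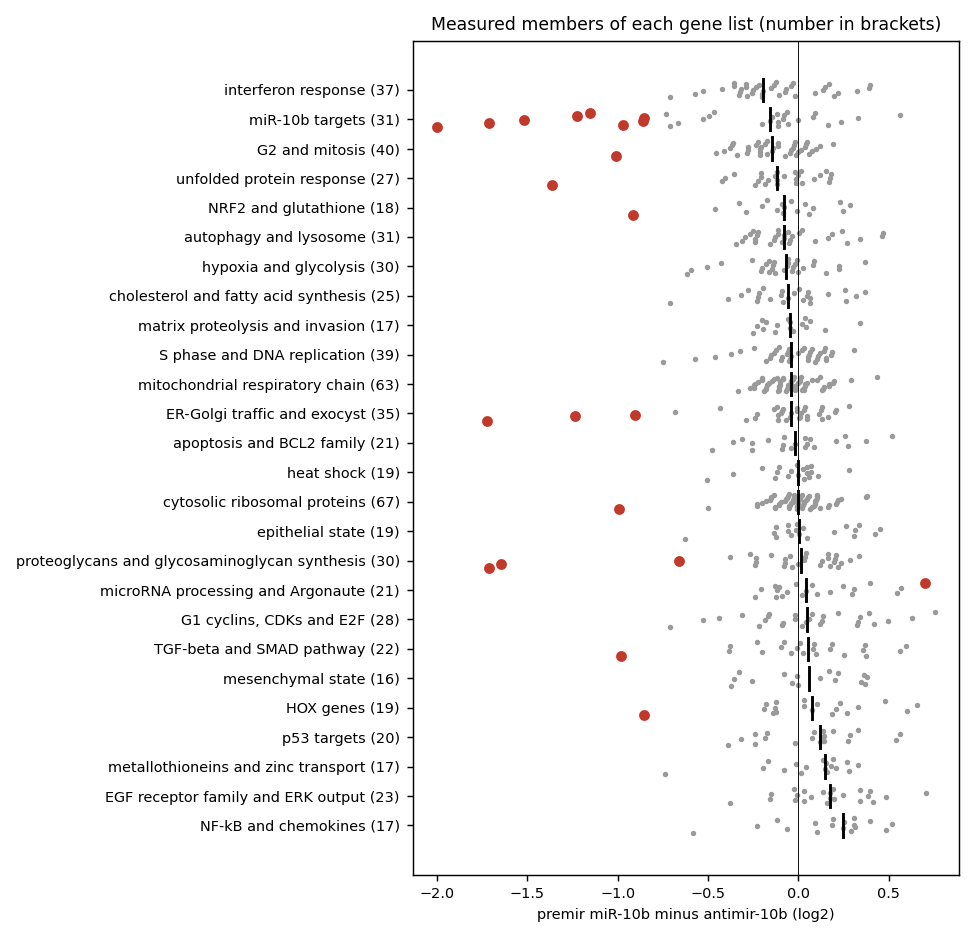
Difference between premir miR-10b and antimir-10b (log2) of each measured member of 26 gene lists, 1 dot a gene, with called genes in red and the list's median as a black bar. Called members lie far from the bar of their own list, and the medians run from -0.20 to 0.25.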

How the data were processed

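The authors deposited 1 table of bead signal intensity on a linear scale, not normalized between arrays, with a detection p-value for each probe and array, per the file headers, and a second table of the same intensity multiplied by 1 constant per array (0.927 to 1.12). Biotin labelling used the Illumina TotalPrep kit, per the labels' protocols. The scanning software is not given in the sources used here, and slide numbers were not used.

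In R 4.3.3 with limma 3.58.1, neqc (background from the detection p-values, offset 16, quantile normalization, log2) was run on all 12 arrays. Probes detected at p under 0.05 on at least 3 arrays were kept (21195), and each symbol of the supplied platform annotation was represented by its probe of highest mean signal. This gave 17369 features, 11725 with a symbol and 5644 without. Of 47231 probes 30113 had 1 symbol, 8 several and 17110 none. The filter counted all groups together. A linear model with 4 group means on 11 arrays (lmFit, eBayes), without premir miR-10b replicate 2, tested each contrast two-sided, with Benjamini-Hochberg adjustment over all features. Where a gene was detected on none of a group's arrays used, its fold is given against the detection limit. The number of arrays limits precision. The replicates are biological, per the labels.

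The groups, gene lists, named genes and the omission of replicate 2 were chosen with earlier results of these data known. The rule names the 12 largest called rises and falls with the premir miR-10b arrays beyond antimir-10b, up to 3 called members of each list, genes whose antimir-10b arrays lie beyond all others, the 5 largest calls of the other comparisons and a fixed set. Other genes outside it are said to be so, except H3-3B, NIPAL4, CNNM4, PCBD1, DNAL4, ACAD11, SS18L2 and FAM219B, which also lie outside it. The calculation was tested on simulated data. Alternatives are described at the end. Positions of genes and 3′ untranslated regions were not used here.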

Additional observations from a re-analysis of the deposited data

Results flagged for a closer look

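The difference between the premir and antimir groups itself differed between the miR-10b and the control oligos, by the interaction of the fit on 11 arrays, in 63 features, at limma adjusted p from 0.00264 to 0.045 for the genes named here. More negative with the miR-10b oligos were CRLF3 (-2.42), CMPK1 (-2.35), ISCA2 (-2.02), RAP2A (-1.97), LRRC8B (-1.80), SUMF1 (-1.72), EXOC2 (-1.69), KCTD18 (-1.59), H3-3B (-1.51), BTRC (-1.44), SCARB2 (-1.43), ZMYND11 (-1.42), H3-5 (-1.35), SKA1 (-1.27), KHNYN (-1.25) and ST6GALNAC6 (-1.25). With smaller values in the same direction stood MCMBP (-1.24), P4HB (-1.24), TMEM183BP (-1.24), RAB15 (-1.23), TMEM183A (-1.23), SDC1 (-1.19), E2F7 (-1.17), SS18L2 (-1.16), CDK6 (-1.13), EDEM1 (-1.13), GOLGA3 (-1.09), CRADD (-1.07), SLC7A1 (-1.07), TMEM30A (-1.02), PCBD1 (-1.01), DNAL4 (-0.97), ACAD11 (-0.96), HTATIP2 (-0.96), NEK6 (-0.94) and FAM219B (-0.82). More positive were AXL (2.16), CHPF (1.93), KRT80 (1.81), CTDSP2 (1.59), TOR1A (1.55) and CXCL1 (1.27). Groups hold 3 arrays at most, too few to look for single outlying samples by gene. CDK6, E2F7 and the 6 genes with positive values were called in this difference and not between premir miR-10b and antimir-10b. Between the control oligos CDK6 had 0.42 and E2F7 0.64, which enter their values here.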

How the results depend on the processing

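Called features numbered 74 with the miR-10b oligos, 36 between the control oligos and 63 in the difference of these, with 69 falls below all other arrays and 8 targets lower. With premir miR-10b replicate 2 included these became 11, 4, 0, 11 and 3, on the authors' scaled values 37, 16, 18, 35 and 4, and with median centring 41, 21, 14, 39 and 4. A fold minimum of 1.2 gave 37, 9, 24 and 37 for the first 4. Array weights gave 48 and 147 for the first 2. Only the compared arrays gave 13, 112, 13 and 1 for the miR-10b calls, the control calls, the falls below all others and the targets. Without a filter the difference had 35 calls. With the replicate number as a block there were 58, 27 and 36 calls. Whether same-numbered arrays are paired was left unsettled: 7 of 15 such pairs had a correlation over 0.1. Their median was 0.091, against -0.031 for pairs with other numbers. Leaving out 1 array gave 48 to 99 calls with the miR-10b oligos, 9 to 91 between the control oligos, 17 to 275 in the difference (275 without premir miR-10b replicate 1, 35 without replicate 3), 48 to 80 falls below all others and 5 to 10 targets. The lowest 48 was without antimir-10b replicate 1, which kept 48 of the 74 calls, and without premir miR-10b replicate 3 39 were kept. Of the 74 features 31 stayed called with the authors' values, 37 with median centring, 13 with only the compared arrays and 11 with replicate 2 included. Their sign was kept in 74 of 74 under 23 settings, in 65 of the 65 tested at the stricter detection limit and in 73 with replicate 2. The rises were called in 8 (DICER1) to 17 (PLEKHB2) of 25 settings. Differences of uncalled genes changed sign: AXL to 0.38 and BCL2L11 to 0.13 with replicate 2, TOR1A to 0.01 with median centring and 0.02 with the block, BCL2L11 to 0.11, CHPF to 0.15 and TOR1A to 0.06 without premir miR-10b replicate 1, KLF4 to 0.10 and NF1 to 0.05 without replicate 3, and TOR1A to 0.05 without antimir-10b replicate 1. At the other end of the single-array omissions, BCL2L11 had -0.26, CHPF -0.63 and TOR1A -0.08 without premir miR-10b replicate 3, and KLF4 -0.41 and NF1 -0.22 without replicate 1. The causes were not tested. A block by slide was not run.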

Other observations

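The widest positive difference between premir miR-10b and antimir-10b, 2.19 log2 units, belonged to RNA28SN5, a 28S ribosomal RNA gene chosen after its value was seen, and was not called (limma adjusted p 0.634). Its signal was 11.08 and 10.89 on premir miR-10b replicates 1 and 3 and 9.44, 11.15 and 5.77 on antimir-10b replicates 1, 2 and 3, so the difference rests mainly on antimir-10b replicate 3.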
